A study of Arabidopsis thaliana with 8 samples.

Results

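The wild-type endosperm of Arabidopsis thaliana at 6 days after pollination is described here from the 2 RNA-seq libraries of the Col-0 x Col-0 cross, chosen by their cross label, of 8 libraries from 4 crosses in the series. In this cross the emasculated mother and the pollen donor were both Col-0, the common laboratory wild type, and no mutant allele or agent was used. The endosperm was cut out of seed sections by laser capture microdissection, which collects chosen cells under a microscope, and the plants were grown in long days. The labels give neither the part of the endosperm that was captured nor whether the 2 libraries came from separate plants, so a difference between them measures the spread between these 2 samples, which may be technical. With a single group of 2 libraries there is no test, and the values of both libraries are given in place of a mean and its error.

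Endosperm is the nourishing tissue of the seed and arises when a sperm cell fertilises the central cell of the female gametophyte. In Arabidopsis it first grows as a syncytium of nuclei in shared cytoplasm, then forms cell walls from the micropylar end, beside the embryo, towards the chalazal end, where nutrients enter from the mother. The embryo later consumes most of it. Its genome is known for parental imprinting, in which the maternal or the paternal copy of a gene is the more active.

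Levels are in FPKM, the fragments scaled by transcript length and by the fragments mapped in the library, as the authors deposited them, so that levels of different genes are comparable per length. Of 34133 genes, 18170 were above 0 in replicate 1 and 19917 in replicate 2, and 13788 were above 0 in neither. A gene was counted as detected at 1 FPKM or more in both libraries, which 16726 genes reached, or 49.0% of all genes. Among nuclear protein-coding genes 16234 of 26693 were detected, or 60.8%, the share beside which the detected counts of the lists stand. The median of the detected genes was 19.5 FPKM in replicate 1 and 24.1 FPKM in replicate 2. A level of 100 FPKM or more in both libraries, used below as a high level, was reached by 2245 genes, or 13.4% of the detected genes. The steps between low values put the depth at about 646000 fragments in replicate 1 and 1680000 in replicate 2. On a transcript of 1500 nt, 1 fragment was therefore worth 1.21 FPKM in replicate 1 and 0.464 FPKM in replicate 2. A gene of this length or shorter could thus count as detected from 1 fragment in replicate 1. The limit that a count of 0 allows, 3 fragments, was worth 3.63 and 1.39 FPKM. These limits cover counting error only, and a value of exactly 0 in such a table can be a failed estimate. Of 364 ribosomal protein genes, a class found by product name, 20 were listed at 0 in both libraries. Whether those are failed estimates or genes without expression was not tested. Genes at 0 are therefore said to be listed at 0, and not to be silent. Many genes overlap a further annotated gene. Of the list genes named below these are ESF1.1, FIS2, CKX2, SDC, FWA, MSI1, FIE, CLF, KN, KIS, AUR1, CDKB2;1, SNAP33, KEU, CESA1, CESA3, L1L, BCCP2, AT3G01570, OLEO1, OLEO2, CWINV2, PASPA3, SCPL48, the ALPHA-, GAMMA- and DELTA-VPE genes, GA3OX4, YUC11, IKU2, ERS1, EBF2, ETR1, TT4, TT19 and CAB1. Of the other genes named, NF-YC2, NF-YC3, AT3G02790, AT3G12510, ACP1, RGP3, AT5G51105, ANN6, ANNAT1, AT5G65609, AT5G64401 and several of the most abundant genes overlap as well. Since the labels do not say whether strand was kept, the partners' reads cannot be told apart.

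Ranked by FPKM, many of the highest places went to genes for small peptides, a result that depended on transcript length. The ranking took the 30 nuclear protein-coding genes with the highest geometric mean of the 2 libraries and a transcript of at least 300 nt. Of these, 13 encoded cysteine-rich or defensin-like peptides, a large plant family of short proteins held together by disulphide bonds. A further 4 encoded members of the superfamily of lipid-transfer proteins, inhibitors and seed storage albumins. They are called lipid-transfer genes for short, since the annotation does not say which of these they are. LCR73, a low-molecular-weight cysteine-rich peptide gene, led the ranking with 3314 FPKM in replicate 1 and 1505 FPKM in replicate 2. AT5G19175, named only as a cysteine-rich protein, followed with 2882 FPKM in replicate 1 and 1427 FPKM in replicate 2. LCR30 had 2265 FPKM in replicate 1 and 1350 FPKM in replicate 2. All 3 were higher in replicate 1, by between 0.75 and 1.14 on the log2 scale. The defensin-like gene AT2G12475 reached 1897 FPKM in replicate 1 and 1181 FPKM in replicate 2. SCRL14, a relative of the pollen ligands of self-incompatibility, reached 2147 FPKM in replicate 1 and 994 FPKM in replicate 2. LCR69, LCR84, LCR48, AT1G53282, AT1G13607, AT5G56369, AT3G16895 and AT1G77525 completed the family's 13 places. Of the 30 genes, 12 remained when transcripts under 500 nt were left out. In the same ranking taken to 100 genes, 35 encoded ribosomal proteins and 16 encoded cysteine-rich or defensin-like peptides. A further 4 cysteine-rich or defensin-like genes, AT2G17723, AT3G27835, LCR41 and AT5G37473, had levels as high but transcripts under 300 nt. There FPKM depends most on how a length correction is made, and these genes were ranked apart. Their values lay between 1099 and 1925 FPKM in replicate 1 and between 813 and 1049 FPKM in replicate 2.

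The lipid-transfer genes of the same ranking held neighbours in the genome. AT5G38160 had 1933 FPKM in replicate 1 and 944 FPKM in replicate 2, and AT5G38170 beside it had 1865 FPKM in replicate 1 and 905 FPKM in replicate 2. AT5G38180 and AT5G38195, from the same stretch, had 1027 and 949 FPKM in replicate 1 and 564 and 537 FPKM in replicate 2. These are close relatives, so fragments shared between them could have been divided unevenly by the authors' estimate. Of the 100 most abundant genes, 6 stood within 3 protein-coding genes of another gene of the 100. The other pair, AT5G63240 and AT5G63250, encoded proteins with an X8 carbohydrate-binding domain, which binds callose in the proteins where it has been studied. AT5G63250 had 1131 FPKM in replicate 1 and 545 FPKM in replicate 2, and AT5G63240 had 834 FPKM in replicate 1 and 533 FPKM in replicate 2.

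The remaining places of the 30 went to cell-surface proteins, housekeeping genes and genes of unknown product. ENODL3 and ENODL4 encode early nodulin-like proteins, which are related to copper-binding proteins of the cell surface. ENODL3 had 1556 FPKM in replicate 1 and 772 FPKM in replicate 2, and ENODL4 had 1288 FPKM in replicate 1 and 694 FPKM in replicate 2. AGP15, a short arabinogalactan peptide of the cell wall, had 1233 FPKM in replicate 1 and 681 FPKM in replicate 2. NRPB12, a small subunit of RNA polymerase, had 1746 FPKM in replicate 1 and 1340 FPKM in replicate 2. Its gene overlaps a further annotated gene, as do LCR73, AT3G28899, AT1G67785, CAB1 and AT5G60390 of the same ranking. The 4 genes of uncharacterized product, AT3G28899, AT1G67785, AT1G21395 and AT2G19802, had between 1410 and 1717 FPKM in replicate 1 and between 739 and 1546 FPKM in replicate 2. AT3G28899, with 1410 FPKM in replicate 1 and 1546 FPKM in replicate 2, was the exception among the 30 in being higher in replicate 2.

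**Figure D1:**
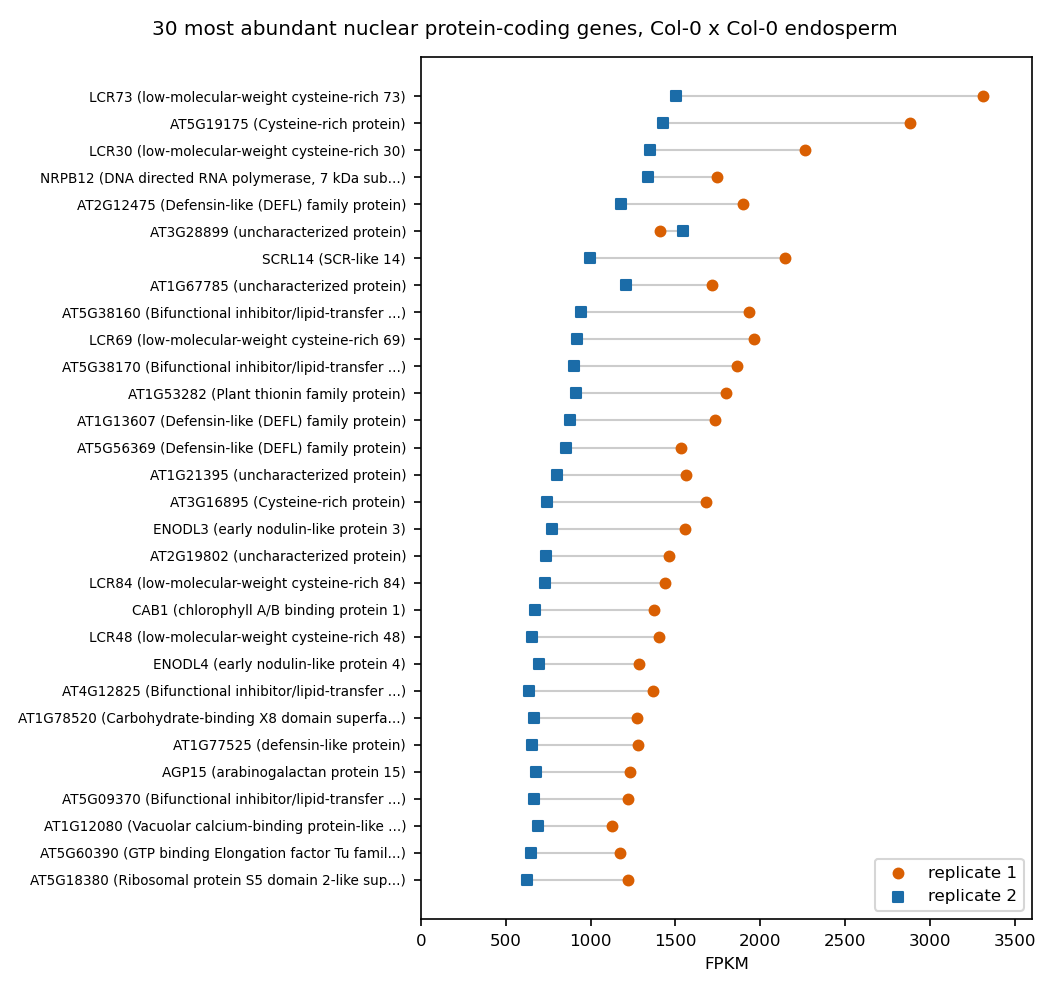
Levels in FPKM (linear axis) of the 30 most abundant nuclear protein-coding genes with a transcript of at least 300 nt, with a circle for replicate 1 and a square for replicate 2 of each gene. LCR73 leads with 3314 FPKM in replicate 1 and 1505 FPKM in replicate 2, and AT3G28899 is the gene whose square lies to the right of its circle.

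Summed over whole product classes, ribosomal proteins held the largest share of FPKM among the 15 classes formed. The classes were formed from product names after values of these libraries had been seen. Ribosomal proteins without an organelle in their name made up 12.3% of all FPKM in replicate 1 and 9.33% in replicate 2, with 339 of 364 genes detected and 240 at the high level. The cysteine-rich and defensin-like class held 5.36% of all FPKM in replicate 1 and 3.86% in replicate 2. It was split: 238 of its 497 genes were detected, 214 were listed at 0 in both libraries, and 71 were at the high level, which is 29.8% of those detected. The lipid-transfer class held 1.46% of all FPKM in replicate 1 and 0.922% in replicate 2 from 45 detected genes of 133, of which 20 were at the high level. Many genes of both classes have short transcripts, and on a transcript of 500 nt 1 fragment was worth 5.53 FPKM in replicate 1 and 2.12 FPKM in replicate 2, so a listing at 0 carries less weight there.

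In the ECA1, S1 and RALF-like families a few members were abundant and most were not detected. Their transcripts are short, with median lengths of 364.5, 531 and 544 nt, so a listing at 0 carries less weight here too. Of 74 ECA1 gametogenesis related genes, a cysteine-rich family that includes the egg cell peptides, 8 were detected and 61 were listed at 0. AT5G51105 was the highest of them, with 1095 FPKM in replicate 1 and 555 FPKM in replicate 2, and AT3G45248 had 706 FPKM in replicate 1 and 482 FPKM in replicate 2. Of 63 homologues of the self-incompatibility protein S1, 15 were detected, led by AT1G26796 with 986 FPKM in replicate 1 and 547 FPKM in replicate 2. Of 32 genes for RALF-like peptides, which signal through receptor kinases at the cell surface, 8 were detected. RALFL3 led these with 398 FPKM in replicate 1 and 262 FPKM in replicate 2. The early nodulin-like family had more of its members detected, with 17 of 23 genes detected and 11 at the high level. ENODL14 had 1108 FPKM in replicate 1 and 593 FPKM in replicate 2, ENODL10 had 779 FPKM in replicate 1 and 580 FPKM in replicate 2, and ENODL15 had 869 FPKM in replicate 1 and 489 FPKM in replicate 2. Among the annexins, proteins that bind membrane lipids with calcium, 6 of 8 were detected. ANN6 had 607 FPKM in replicate 1 and 440 FPKM in replicate 2, while ANNAT1 had 127 FPKM in replicate 1 and 99.5 FPKM in replicate 2.

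Histone genes, which supply chromatin during DNA replication, had 46 of 52 members detected and 34 at the high level. HTA11, a gene for a variant of histone H2A, had 940 FPKM in replicate 1 and 478 FPKM in replicate 2, and the replication-type H3 gene AT1G09200 had 708 FPKM in replicate 1 and 512 FPKM in replicate 2. Several histone genes are nearly identical in sequence, so the split between them is uncertain. Genes annotated as encoding uncharacterized proteins held 4.89% of all FPKM in replicate 1 and 5.05% in replicate 2, with 99 of 2484 at the high level. Its detected members had a median of 19.2 FPKM in replicate 1 and 23.5 FPKM in replicate 2, close to the medians of all detected genes.

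**Figure D2:**
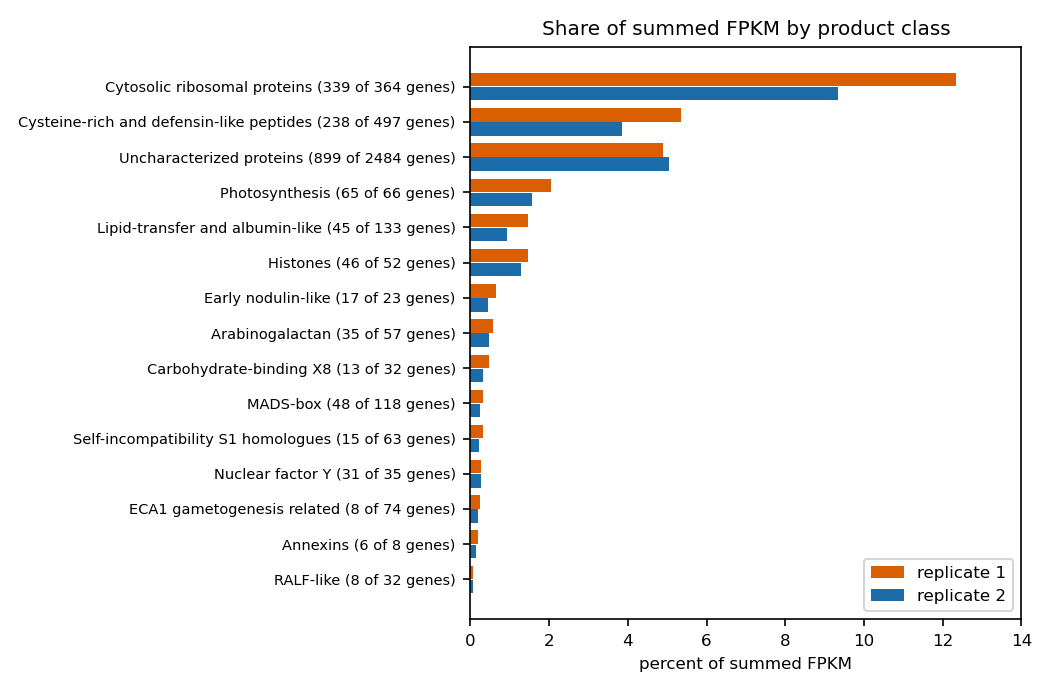
Share of all FPKM, in percent, held by each product class in replicate 1 and replicate 2, with detected and annotated gene numbers beside each class name. Ribosomal proteins hold 12.3% and 9.33% and cysteine-rich and defensin-like peptides 5.36% and 3.86%, and the uncharacterized proteins and Nuclear factor Y are the classes with a longer bar for replicate 2.

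Restricting the ranking to transcripts of at least 1000 nt, where the length correction matters less, moved the weight to translation and to a transcription factor. The list then opened with CAB1, AGP15, AT5G60390, which encodes a translation elongation factor, and the ribosomal protein gene AT5G18380. GRP7, an RNA-binding protein under circadian control, had 1127 FPKM in replicate 1 and 606 FPKM in replicate 2. RGP3, one of the reversibly glycosylated polypeptides of wall polysaccharide synthesis, had 841 FPKM in replicate 1 and 617 FPKM in replicate 2. NF-YC2 stood in eighth place, among ribosomal proteins, with 962 FPKM in replicate 1 and 603 FPKM in replicate 2.

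Of 1193 transcription factor genes found by product name, 574 were detected and 34 were at the high level in both libraries. The search leaves out factors whose product name gives no factor family, among them LEC1, annotated as a histone-fold protein, whose 453 FPKM in replicate 1 and 393 FPKM in replicate 2 lie above those of AT1G59920 below. NF-YC2, a histone-fold subunit of the trimeric Nuclear factor Y that binds CCAAT boxes, was the most abundant of them. Of the 35 genes with Nuclear factor Y in their product name, which leave out LEC1, 31 were detected. Among these 35, those next to NF-YC2 were also C subunits, while the B subunit LEC1 lay above them. NF-YC3 had 251 FPKM in replicate 1 and 217 FPKM in replicate 2, NF-YC6 had 247 FPKM in replicate 1 and 205 FPKM in replicate 2, and NF-YC12 had 210 FPKM in replicate 1 and 217 FPKM in replicate 2. The partner B subunits LEC1 and L1L, known as regulators of seed maturation, are described with the maturation factors below. ICE1, a basic helix-loop-helix protein that acts with ZOU in endosperm breakdown, had 344 FPKM in replicate 1 and 347 FPKM in replicate 2, and differed by 0.01 on the log2 scale. GATA29, a zinc-finger factor, had 298 FPKM in replicate 1 and 301 FPKM in replicate 2. HDG3, a homeodomain gene known to be expressed from the paternal copy in endosperm, had 317 FPKM in replicate 1 and 206 FPKM in replicate 2. The other factors among the 15 most abundant included the zinc-finger genes AT3G02790 and AT5G16470, the bZIP gene AT5G07160, the homeodomain-like gene AT4G04580 and WLIM2b, with values between 271 and 407 FPKM in replicate 1 and between 234 and 319 FPKM in replicate 2.

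MADS-box genes held 4 of those 15 places, although 48 of 118 family members were detected and 47 were listed at 0 in both libraries. AT1G59930 had 785 FPKM in replicate 1 and 367 FPKM in replicate 2. AT1G59920, a close relative with the neighbouring identifier, had 478 FPKM in replicate 1 and 287 FPKM in replicate 2. AGL87 had 414 FPKM in replicate 1 and 282 FPKM in replicate 2, and AT3G12510 had 318 FPKM in replicate 1 and 226 FPKM in replicate 2. All 4 were higher in replicate 1. AGL18 and AGL15, type II members known from embryos, had 81.4 and 46.2 FPKM in replicate 1 and 52.3 and 61.3 FPKM in replicate 2.

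The list of type I MADS-box genes known from early endosperm showed the same spread. Of its 18 members, 16 were detected and 9 were at 10 FPKM or more in both libraries, with a median over all members of 13.7 FPKM in replicate 1 and 12.1 FPKM in replicate 2. PHE1, an imprinted target of the endosperm Polycomb complex, had 174 FPKM in replicate 1 and 94.8 FPKM in replicate 2, and its near copy PHE2 had 149 FPKM in replicate 1 and 58.3 FPKM in replicate 2. These copies share much of their sequence, so their separate levels are uncertain. AGL86 had 77.9 FPKM in replicate 1 and 37.4 FPKM in replicate 2, AGL91 had 79.9 FPKM in replicate 1 and 34.5 FPKM in replicate 2, and AGL40 had 62.4 FPKM in replicate 1 and 47.1 FPKM in replicate 2. Of the 16 detected members, 13 were higher in replicate 1, and the median log2 difference was 0.30, against -0.16 over all detected genes. AGL62, which is known to hold back cellularization in the syncytial endosperm, was low at 3.42 FPKM in replicate 1 and 2.62 FPKM in replicate 2, an estimated 4.02 and 8.05 fragments. AGL36, AGL90 and AGL61 counted as detected from an estimated 1.00 to 1.03 fragments in replicate 1.

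Markers of the micropylar and embryo-surrounding endosperm were present at high levels. Of 12 members of this list, 10 were detected, each with a geometric mean above the median of all detected genes (TWS1 lay below that median in replicate 2), and 5 were at the high level. After ICE1, SUC5, a sucrose carrier of the endosperm, had 295 FPKM in replicate 1 and 197 FPKM in replicate 2. KRS, a small secreted protein needed for separation of embryo and endosperm, had 218 FPKM in replicate 1 and 251 FPKM in replicate 2. ZOU, the partner of ICE1, had 138 FPKM in replicate 1 and 196 FPKM in replicate 2. The subtilisin protease ALE1, which acts on the embryo's cuticle, had 62.1 FPKM in replicate 1 and 105 FPKM in replicate 2. Its substrate TWS1, a peptide precursor that the embryo itself is known to make, was lower, with 31.8 FPKM in replicate 1 and 16.3 FPKM in replicate 2. The peptide genes ESF1.3 and ESF1.2, which pattern the suspensor, had 114 and 83.5 FPKM in replicate 1 and 109 and 80.2 FPKM in replicate 2, from an estimated 7.34 to 23.2 fragments on their short transcripts. CLE8, a signalling peptide of embryo and endosperm, had 88.4 FPKM in replicate 1 and 79.2 FPKM in replicate 2. ESF1.1 and CLE19 were listed at 0 in both libraries.

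Markers of the chalazal end were mostly low, with the exception of a transporter. Of 8 members, 4 were detected, against 60.8% of protein-coding genes, and the median over all 8 was 2.26 FPKM in replicate 1 and 3.05 FPKM in replicate 2. UMAMIT25, an exporter of amino acids from the endosperm, had 146 FPKM in replicate 1 and 223 FPKM in replicate 2. FIS2, a Polycomb subunit gene, had 7.73 FPKM in replicate 1 and 10.9 FPKM in replicate 2, an estimated 12.0 and 44.0 fragments, and CKX2, which breaks down cytokinin, had 5.36 FPKM in replicate 1 and 4.94 FPKM in replicate 2. The cytokinin synthesis gene IPT8 was listed at 0 in both libraries, and IPT4 was listed at 0 in replicate 1 and had 0.72 FPKM in replicate 2. The estimate for IPT4 in replicate 2 was 1.01 fragments, under the limit that 3 fragments set. In such bulk material, fewer cells of a type and less RNA per cell cannot be told apart.

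**Figure D3:**
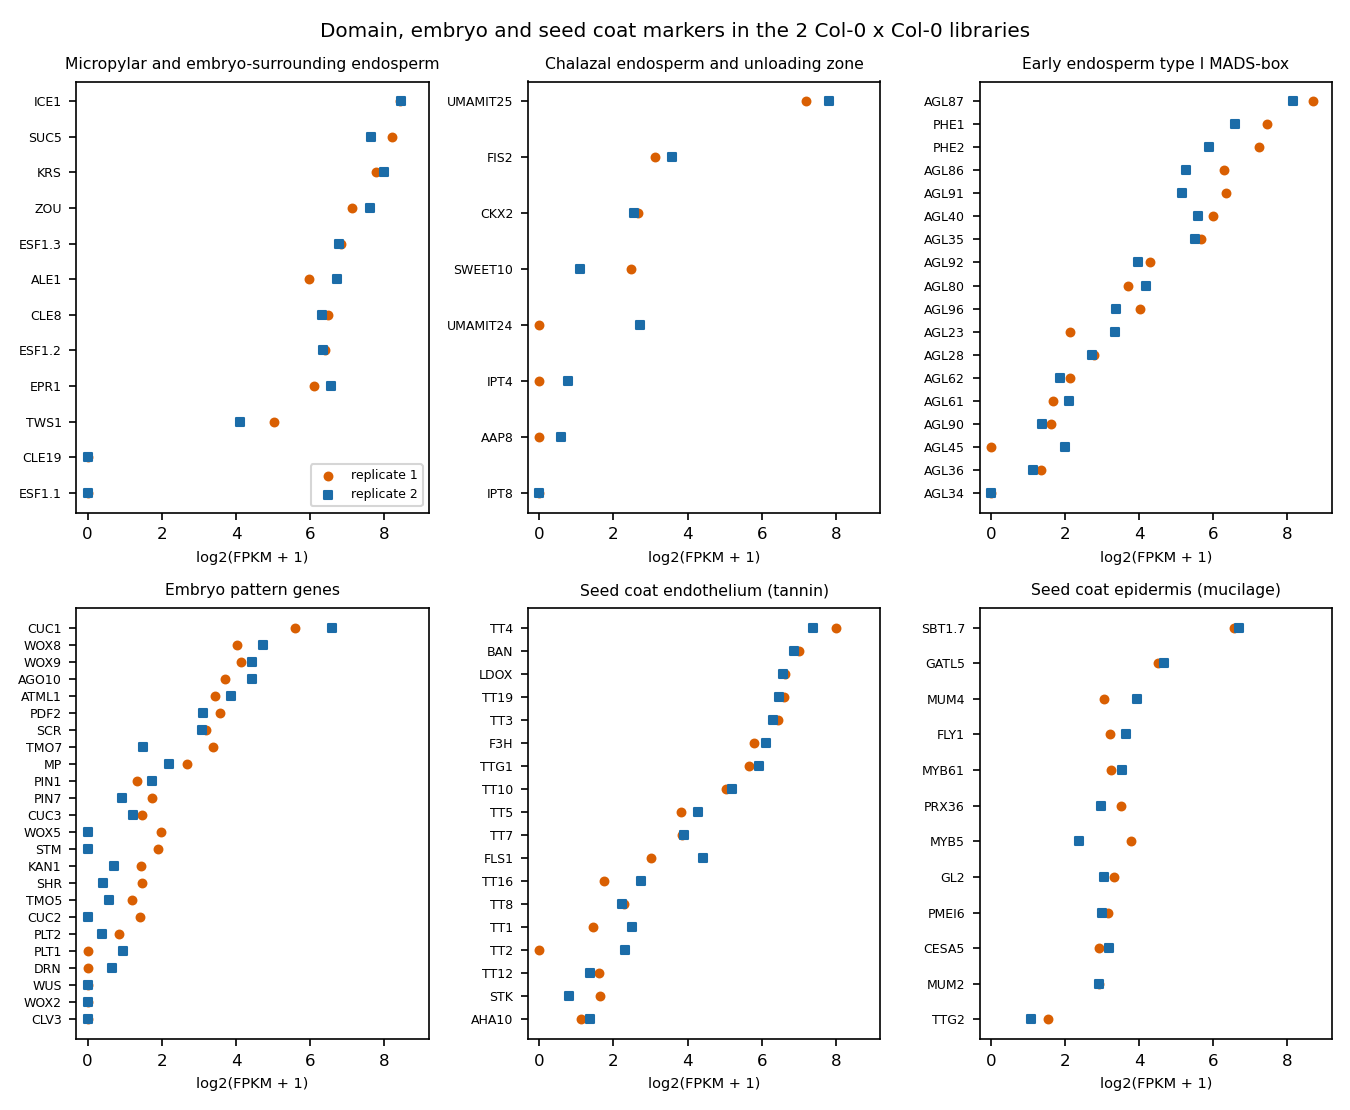
Levels as log2(FPKM + 1) of every member of 6 marker lists, with a circle for replicate 1 and a square for replicate 2, sorted by mean FPKM within each list. Micropylar markers cluster above 4 on this scale except CLE19 and ESF1.1 at 0, while chalazal markers other than UMAMIT25, at 146 and 223 FPKM, and most embryo pattern genes lie near the bottom of the scale.

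Imprinted genes were detected in both classes. Of 12 maternally expressed genes, 11 were detected, with a median over all members of 8.76 FPKM in replicate 1 and 11.1 FPKM in replicate 2. SDC, an F-box gene silenced by DNA methylation in most tissues, had 184 FPKM in replicate 1 and 147 FPKM in replicate 2. The homeodomain genes HDG9 and HDG8 had 110 and 69.2 FPKM in replicate 1 and 92 and 37.7 FPKM in replicate 2. FWA, also a homeodomain gene and a classic case of maternal expression, had 33.3 FPKM in replicate 1 and 28.3 FPKM in replicate 2. Among 11 paternally expressed genes, 9 were detected, with a median over all members of 10.9 FPKM in replicate 1 and 11.1 FPKM in replicate 2. After HDG3 and PHE1, YUC10, an auxin synthesis gene, had 33.4 FPKM in replicate 1 and 26.3 FPKM in replicate 2, and VIM5, a methylcytosine-binding protein gene, had 31.2 FPKM in replicate 1 and 47.6 FPKM in replicate 2. The table does not separate parental alleles, and both parents were Col-0, so no parent of origin can be read from these levels.

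Genes of the Polycomb complexes and of DNA methylation, which set imprinting, were nearly all detected, 19 of 20, some of them at low levels. MSI1 and FIE encode subunits of Polycomb complexes in many tissues. MSI1 had 176 FPKM in replicate 1 and 171 FPKM in replicate 2, and FIE had 131 FPKM in replicate 1 and 134 FPKM in replicate 2. MEA, the histone methyltransferase of the endosperm complex, had 1.49 FPKM in replicate 1 and 1.72 FPKM in replicate 2, an estimated 2.05 and 6.14 fragments. Its relatives of broader use, SWN and CLF, had 33.8 and 3.94 FPKM in replicate 1 and 42.2 and 9.72 FPKM in replicate 2. CLF was thus below FIS2 in both libraries and SWN above it. AGO4, an effector of small RNAs, had 82.3 FPKM in replicate 1 and 94.9 FPKM in replicate 2. The CHG methyltransferase CMT3 had 54.7 FPKM in replicate 1 and 47.6 FPKM in replicate 2, above the maintenance methyltransferase MET1, with 18.4 FPKM in replicate 1 and 19.1 FPKM in replicate 2.

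Every gene of the cellularization and cytokinesis list was detected, 21 of 21, with 8 at the high level. KN, the syntaxin that fuses vesicles at the forming cell plate, had 617 FPKM in replicate 1 and 453 FPKM in replicate 2. DRP1A, a dynamin-related protein of the cell plate, had 225 FPKM in replicate 1 and 180 FPKM in replicate 2. The mitotic cyclin gene CYCB1;2 had 173 FPKM in replicate 1 and 141 FPKM in replicate 2, and the mitotic kinase AUR1 had 150 FPKM in replicate 1 and 141 FPKM in replicate 2. KIS, a tubulin folding cofactor, had 134 FPKM in replicate 1 and 160 FPKM in replicate 2. The plant mitotic kinase gene CDKB2;1 had 135 FPKM in replicate 1 and 145 FPKM in replicate 2. The partners of KN were at lower levels, SNAP33 with 35.9 FPKM in replicate 1 and 37.6 FPKM in replicate 2, and KEU with 39.1 FPKM in replicate 1 and 33.5 FPKM in replicate 2. The median over the list was 43.3 FPKM in replicate 1 and 47.3 FPKM in replicate 2, against 19.5 and 24.1 FPKM over all detected genes.

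Wall synthases were led by a mannan synthase. Of 9 members, 7 were detected. CSLA2, which makes glucomannan, had 200 FPKM in replicate 1 and 129 FPKM in replicate 2, while its relatives CSLA7 and CSLA9 were listed at 0 in replicate 1 and had 1.01 and 0 FPKM in replicate 2. The cellulose synthase genes of primary walls followed, CESA3 with 46.1 FPKM in replicate 1 and 71.5 FPKM in replicate 2, CESA6 with 46.9 FPKM in replicate 1 and 42.1 FPKM in replicate 2, and CESA1 with 29.7 FPKM in replicate 1 and 52 FPKM in replicate 2.

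Regulators of seed maturation were detected, several at high levels, while storage protein genes were low or listed at 0. All but ABI4 of 11 maturation factors were detected, and 3 were at the high level. LEC1 had 453 FPKM in replicate 1 and 393 FPKM in replicate 2, which placed it above 97.8% of the detected genes, and L1L had 111 FPKM in replicate 1 and 135 FPKM in replicate 2. WRI1, which drives fatty acid synthesis genes, had 207 FPKM in replicate 1 and 210 FPKM in replicate 2. MYB118, a repressor of maturation genes in endosperm, had 72.3 FPKM in replicate 1 and 95.3 FPKM in replicate 2. LEC2 had 42.5 FPKM in replicate 1 and 50 FPKM in replicate 2, and FUS3 had 42.8 FPKM in replicate 1 and 46.8 FPKM in replicate 2. The abscisic acid response factor ABI3 had 8.38 FPKM in replicate 1 and 5.79 FPKM in replicate 2. Of 8 storage protein genes, 5 (CRU2, CRU3, SESA3, SESA4 and SESA5) were listed at 0 in both libraries. The albumin gene SESA1 had 13 FPKM in replicate 1 and 17.5 FPKM in replicate 2. The cruciferin gene CRA1 had 1.09 FPKM in replicate 1 and 20.7 FPKM in replicate 2, an estimated 1.09 and 54.2 fragments, so the libraries differed there.

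Oil synthesis genes were higher than the storage protein genes. Of 15 members, 13 were detected and 6 were at the high level. KAS1, a condensing enzyme of fatty acid synthesis, had 511 FPKM in replicate 1 and 412 FPKM in replicate 2. The desaturase gene FAD2 had 528 FPKM in replicate 1 and 393 FPKM in replicate 2, and BCCP2, a subunit of acetyl-CoA carboxylase, had 304 FPKM in replicate 1 and 267 FPKM in replicate 2. SSI2, a stearoyl-ACP desaturase, had 195 FPKM in replicate 1 and 207 FPKM in replicate 2. The acyl carrier protein genes ACP2, ACP1 and ACP3, looked up after values had been seen, had between 569 and 692 FPKM in replicate 1 and between 413 and 457 FPKM in replicate 2. Oleosins, the coat proteins of oil bodies, were unequal: OLEO3 had 570 FPKM in replicate 1 and 454 FPKM in replicate 2, while OLEO1, a main oleosin of mature seeds, had 13.6 FPKM in replicate 1 and 14.8 FPKM in replicate 2. The oleosin family gene AT3G01570 had 126 FPKM in replicate 1 and 180 FPKM in replicate 2. OLEO2 had 38.3 FPKM in replicate 1 and 36.8 FPKM in replicate 2. HSD1 and CLO1, further oil body proteins, were listed at 0.

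**Figure D4:**
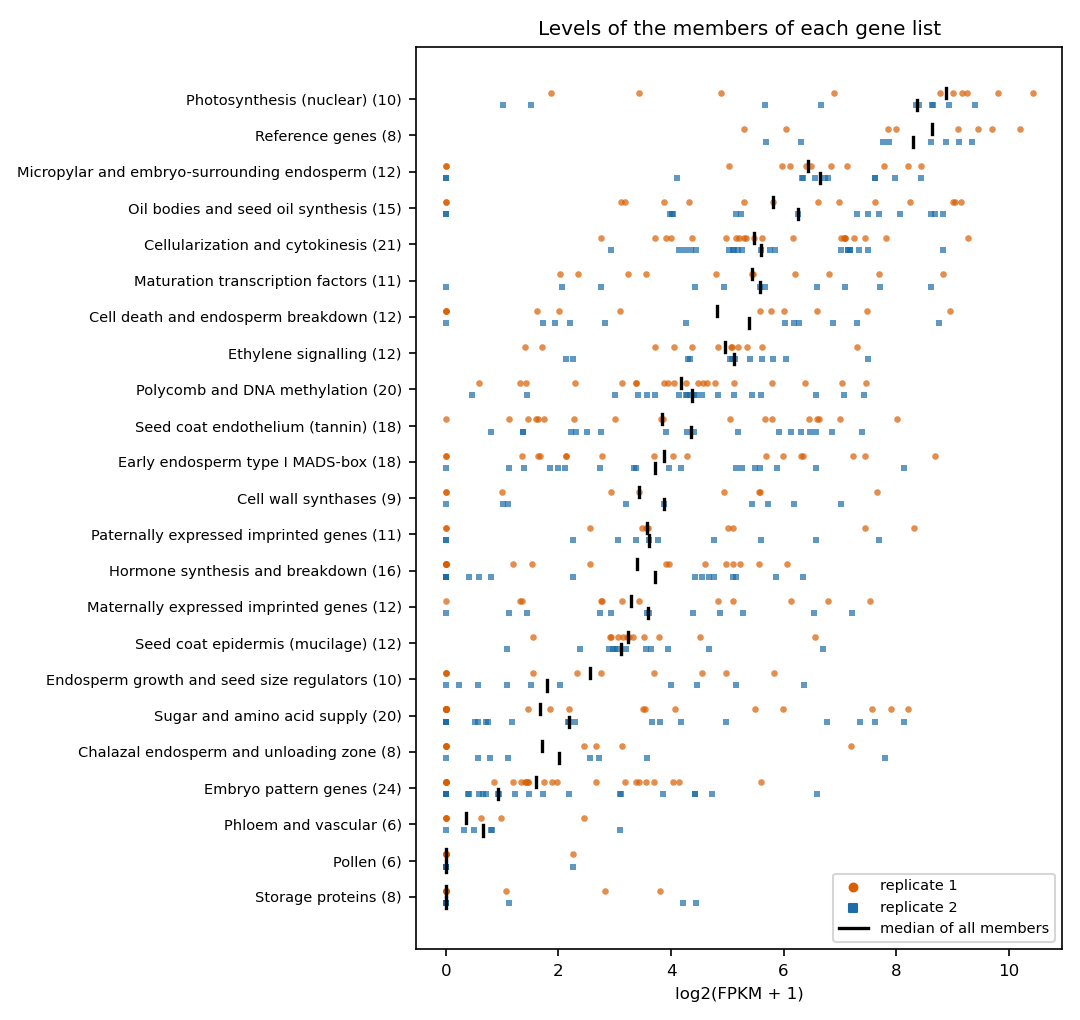
Levels as log2(FPKM + 1) of all members of the 23 gene lists, with the number of members after each name, a circle for replicate 1, a square for replicate 2 and a black bar at the median of all members. Photosynthesis, reference, micropylar and oil genes stand at the top, with photosynthesis medians of 474 and 332 FPKM, and pollen and storage proteins have a median of 0 in both libraries.

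Genes of sugar and amino acid supply ranged widely. Of 20 members of this list, 10 were detected and 3 were at the high level, and the median over all members was 2.18 FPKM in replicate 1 and 3.55 FPKM in replicate 2. SUC5, given above, was at the high level. SWEET15, a sucrose exporter, had 238 FPKM in replicate 1 and 281 FPKM in replicate 2, and SWEET11 had 62.7 FPKM in replicate 1 and 109 FPKM in replicate 2. AAP1, an amino acid importer, had 190 FPKM in replicate 1 and 162 FPKM in replicate 2. The sucrose exporter SWEET12 and the amino acid exporters UMAMIT18, UMAMIT29 and UMAMIT14 were lower, with between 2.62 and 15.9 FPKM in replicate 1 and between 3.52 and 17 FPKM in replicate 2. Among the sucrose synthases, SUS1 had 44.2 FPKM in replicate 1 and 30.6 FPKM in replicate 2, and SUS4 and SUS5 were listed at 0. The cell wall invertase genes CWINV1, CWINV2 and CWINV4 were at 3.57 FPKM or less in both libraries.

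Of 12 genes of cell death and endosperm breakdown, 9 were detected and 2, both for proteases, were at the high level. PASPA3, an aspartic protease used as a marker of developmental cell death, had 495 FPKM in replicate 1 and 434 FPKM in replicate 2. DELTA-VPE, a vacuolar processing enzyme known from the inner seed coat, had 178 FPKM in replicate 1 and 117 FPKM in replicate 2. The carboxypeptidase gene SCPL48 had 95.4 FPKM in replicate 1 and 157 FPKM in replicate 2, and the papain-type protease gene CEP1 had 54 FPKM in replicate 1 and 76.2 FPKM in replicate 2. The other vacuolar processing enzymes GAMMA-VPE and ALPHA-VPE had 63.5 and 47 FPKM in replicate 1 and 63.8 and 72.1 FPKM in replicate 2. BETA-VPE differed between the libraries, with 2.07 FPKM in replicate 1 and 18.3 FPKM in replicate 2. BFN1, a nuclease of dying cells, was listed at 0 in replicate 1 and had 2.83 FPKM in replicate 2, and the metacaspase gene MC9 had 3.01 FPKM in replicate 1 and 2.31 FPKM in replicate 2.

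Hormone genes stood at moderate levels. Of 16 members, 9 were detected and none reached the high level. The gibberellin synthesis gene GA3OX3 had 65.7 FPKM in replicate 1 and 79.9 FPKM in replicate 2, and GA3OX4 had 14.7 FPKM in replicate 1 and 22.6 FPKM in replicate 2. GAMT1, which methylates gibberellins, had 36.2 FPKM in replicate 1 and 33.3 FPKM in replicate 2. TAA1, at the first step of auxin synthesis, had 46.1 FPKM in replicate 1 and 57.1 FPKM in replicate 2, while YUC1 and YUC11 were listed at 0 in both libraries. For abscisic acid, the synthesis gene NCED6 had 23.5 FPKM in replicate 1 and 24.7 FPKM in replicate 2, and the breakdown gene CYP707A1 had 30.6 FPKM in replicate 1 and 34.5 FPKM in replicate 2.

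Every gene of the ethylene signalling list was detected, 12 of 12, in this wild-type tissue. RTE1, a regulator of the receptor ETR1, had 157 FPKM in replicate 1 and 180 FPKM in replicate 2. EIN2, the membrane protein that carries the signal from the receptors to the nucleus, had 35.7 FPKM in replicate 1 and 54.8 FPKM in replicate 2. Among the receptors, ERS1 was the highest, with 39.7 FPKM in replicate 1 and 64.8 FPKM in replicate 2, against 12.1 FPKM in replicate 1 and 18.8 FPKM in replicate 2 for ETR1 and 1.66 and 3.4 FPKM for EIN4. The transcription factor EIN3 had 19.8 FPKM in replicate 1 and 32.2 FPKM in replicate 2, and its relative EIL1 had 2.27 FPKM in replicate 1 and 3.78 FPKM in replicate 2. EBF2, an F-box protein that degrades EIN3, had 48.1 FPKM in replicate 1 and 41.2 FPKM in replicate 2, and EBF1 had 32.5 FPKM in replicate 1 and 48.3 FPKM in replicate 2. The list differed between the libraries more than most, since EBF2 was the only member of 12 higher in replicate 1 and the median log2 difference was -0.55, against -0.16 over all detected genes.

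Regulators of endosperm growth and seed size were mostly low at this stage. Of 10 members, 7 were detected, with a median over all members of 4.9 FPKM in replicate 1 and 2.47 FPKM in replicate 2. ARF2, an auxin response factor that limits seed size, had 56.1 FPKM in replicate 1 and 80.9 FPKM in replicate 2, and IKU1 had 30.7 FPKM in replicate 1 and 34.8 FPKM in replicate 2. The other genes of the IKU pathway were near 0. The receptor kinase gene IKU2 and the WRKY factor gene MINI3 were listed at 0 in replicate 1 and had 0.183 and 0.48 FPKM in replicate 2, and SHB1 was listed at 0 in both libraries.

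Markers of the neighbouring tissues were measured in the same libraries. Of 24 embryo pattern genes, 11 were detected, and the levels of all 24 summed to 153 FPKM in replicate 1 and 205 FPKM in replicate 2. CUC1, a boundary gene of the embryonic shoot apex, made up much of this sum, with 47.6 FPKM in replicate 1 and 96 FPKM in replicate 2. WOX8 and WOX9, of the basal embryo lineage, had 15.4 and 16.6 FPKM in replicate 1 and 25.7 and 20.5 FPKM in replicate 2. The epidermal factors ATML1 and PDF2 had 9.78 and 10.8 FPKM in replicate 1 and 13.6 and 7.66 FPKM in replicate 2. The stem cell genes WUS and CLV3 and the zygotic gene WOX2 were listed at 0 in both libraries, and STM was listed at 0 in replicate 2 and had 2.72 FPKM in replicate 1. The part of embryo material in the maturation, oil and embryo values above was not tested.

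Genes of the tannin pathway, which marks the endothelium (the innermost layer of the seed coat), were mostly detected, at levels that ranged widely. Of 18 members, 16 were detected, 8 of them with a geometric mean above the median of all detected genes, and 2 were at the high level. The median over all 18 was 13.3 FPKM in replicate 1 and 19.4 FPKM in replicate 2, and their sum was 847 and 780 FPKM. TT4, the chalcone synthase at the entry of the pathway, had 256 FPKM in replicate 1 and 166 FPKM in replicate 2. BAN, the anthocyanidin reductase that is specific to proanthocyanidins, had 127 FPKM in replicate 1 and 115 FPKM in replicate 2. LDOX had 98.4 FPKM in replicate 1 and 94.1 FPKM in replicate 2, TT19 had 95.5 FPKM in replicate 1 and 87.3 FPKM in replicate 2, and TT3 had 86 FPKM in replicate 1 and 78 FPKM in replicate 2. The regulators TT2, TT8 and TT1 were at 4.69 FPKM or less in both libraries, and TT2 was listed at 0 in replicate 1. Mucilage genes of the outer seed coat were all detected, 12 of 12, but lower, with a median of 8.43 FPKM in replicate 1 and 7.70 FPKM in replicate 2. Their sum was 194 FPKM in replicate 1 and 205 FPKM in replicate 2. SBT1.7, a protease of the seed coat, had 92.7 FPKM in replicate 1 and 103 FPKM in replicate 2. The median log2 differences between the libraries were -0.10 for tannin and -0.07 for mucilage genes, with members in both directions: 7 of 16 and 6 of 12 detected members were higher in replicate 1. Single members differed more, such as FLS1, a flavonol synthase, with 7.04 FPKM in replicate 1 and 20.3 FPKM in replicate 2, and MYB5, with 12.8 FPKM in replicate 1 and 4.2 FPKM in replicate 2.

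Phloem and pollen markers were close to the limit of detection. Of 6 phloem and vascular genes, SUC2, the sucrose carrier of companion cells, was the only detected member, with 4.46 FPKM in replicate 1 and 7.54 FPKM in replicate 2. The whole list summed to 6.00 FPKM in replicate 1 and 9.73 FPKM in replicate 2, and APL was listed at 0 in both libraries. Of 6 pollen genes, 5 were listed at 0 in both libraries, and HAP2, the sperm fusion protein gene, had 3.82 FPKM in replicate 1 and 3.81 FPKM in replicate 2.

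Nuclear photosynthesis genes were among the highest lists. All 10 members were detected, but only 8 were at 10 FPKM or more in both libraries, and 6 were at the high level. The median was 474 FPKM in replicate 1 and 332 FPKM in replicate 2. RBCS1A, a small subunit gene of Rubisco, had 894 FPKM in replicate 1 and 491 FPKM in replicate 2, and PSBO1, a subunit of photosystem II, had 609 FPKM in replicate 1 and 400 FPKM in replicate 2. CAB1, CAB2 and CAB3, near-identical genes for a light-harvesting protein, had 1372, 578 and 436 FPKM in replicate 1 and 672, 397 and 336 FPKM in replicate 2. Over the wider product class, 65 of 66 genes were detected and 44 were at the high level, which is 67.7% of those detected against 13.4% of all detected genes. Photosynthesis genes are active in green tissues of the seed other than endosperm as well, and their source was not tested. Plastid transcripts held 1.27% of all FPKM in replicate 1 and 0.885% in replicate 2. Of the genes often used as references, ACT7 had 698 FPKM in replicate 1 and 474 FPKM in replicate 2, UBC9 had 253 FPKM in replicate 1 and 234 FPKM in replicate 2, and PP2AA3 had 38.5 FPKM in replicate 1 and 50.8 FPKM in replicate 2.

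The 2 libraries agreed closely in rank but not in the height of their most abundant genes. Over the 16726 detected genes, Pearson's r of log2(FPKM + 1) was 0.957 and Spearman's rho was 0.958, across genes, which are not independent replicates. Of these genes, 91.5% lay within 2-fold in FPKM + 1, 36.3% were higher in replicate 1, and the median log2 difference, replicate 1 over replicate 2, was -0.16. The difference followed abundance. For geometric means of 10 to 30 FPKM the median was -0.29 over 4954 genes, and for 100 to 300 FPKM it was 0.04 over 1802 genes. For 300 to 1000 FPKM it was 0.53, with 609 of 622 genes higher in replicate 1, and above 1000 FPKM it was 0.97, with 24 of 25 genes higher in replicate 1. The 100 most abundant genes of each library held 12.0% of all FPKM in replicate 1 and 7.33% in replicate 2. Among genes with a geometric mean of 100 FPKM or more, the difference also moved with transcript length. The median was 0.57 over 125 transcripts under 500 nt and 0.30 over 776 of 500 to 1000 nt. It was 0.10 over 811 of 1000 to 1500 nt, 0.03 over 635 of 1500 to 2500 nt, and 0.05 over 73 longer ones. Abundance fell with length in the same genes, from a median of 371 FPKM under 500 nt to 143 FPKM in the longest. Length and abundance were therefore not separated here. Depth differed between the libraries by 2.61-fold, and its part in this pattern was not tested.

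For part of the lists, the difference is given here beside that of genes at the members' abundance, and several departed from it. For the photosynthesis list, the median log2 difference was 0.63, against 0.53 for genes at its members' abundance. The reference genes had 0.30, against 0.29. For ethylene signalling the median was -0.55, against -0.20. The early endosperm MADS-box list had 0.30 where genes at its members' abundance had -0.20. The maternally expressed genes had 0.22, against -0.20, the paternally expressed genes 0.31, against -0.23, and the seed size regulators 0.10, against -0.23. Lists not named so far in this comparison departed as well: the oil list had -0.11, against 0.04, and the cell death list -0.01, against -0.20. The mucilage list had -0.07, against -0.23, the cytokinesis list -0.07, against -0.20, and the storage protein list -0.40, against -0.23. The phloem and pollen lists, each with 1 detected member, had -0.64 and 0.002, against -0.23. The remaining lists are not compared here. The imprinted and MADS-box lists share members such as PHE1.

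**Figure D5:**
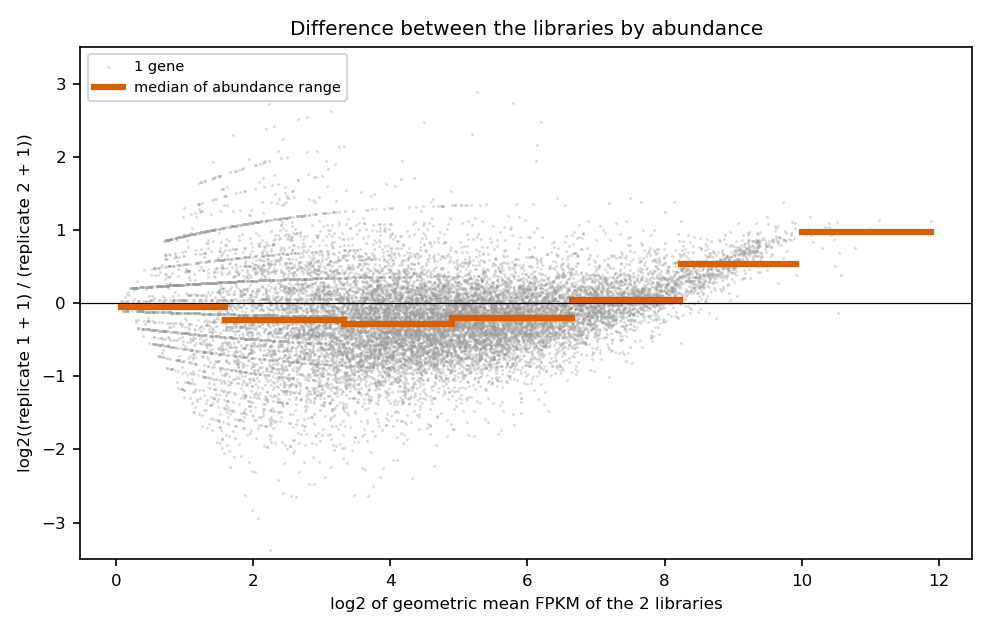
Log2 difference between replicate 1 and replicate 2, from FPKM + 1, against the log2 geometric mean FPKM, with a grey point for each of the 16726 detected genes and an orange bar at the median of each abundance range. The bars lie between -0.29 and -0.06 below 100 FPKM and stand at 0.53 and 0.97 in the highest ranges.

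Some genes were listed at 0 in 1 library and high in the other. Among 8611 nuclear protein-coding genes with a mean of at least 20 FPKM and an estimate of at least 10 fragments in the higher library, 15 were listed at 0 in the other library, 4 of them in replicate 2 and 11 in replicate 1. Of these 15, 14 had transcripts under 600 nt. The share of such transcripts among the 8611 was not computed. Of the 15, 4 overlap a further annotated gene, among them AT5G65609 and AT5G64401 below. Fragment estimates of the shortest transcripts rest on a fixed minimum length of 100 nt after the length correction. AT5G65609 had 259 FPKM in replicate 1 and was listed at 0 in replicate 2, and AT2G13463 had 227 FPKM in replicate 1 and was listed at 0 in replicate 2. The reverse held for AT5G64401, listed at 0 in replicate 1 and with 336 FPKM in replicate 2, and for LCR38, listed at 0 in replicate 1 and with 137 FPKM in replicate 2. LCR38 would then have an estimated 50.4 fragments in replicate 2. Whether such zeros are failed estimates was not tested, and no fold is given. Among candidates above 0 in both libraries, RALFL28 had 107 FPKM in replicate 1 and 13.7 FPKM in replicate 2, and the thionin family gene AT2G20597 had 138 FPKM in replicate 1 and 35.3 FPKM in replicate 2. In the other direction, ARP1, an RNA-binding protein gene, had 5.96 FPKM in replicate 1 and 35.1 FPKM in replicate 2, and PSF2, a subunit of the replication complex GINS, had 6.39 FPKM in replicate 1 and 34.3 FPKM in replicate 2. In all, 6 candidates above 0 in both libraries differed by more than 4-fold in FPKM + 1.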

How the data were processed

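RNA-seq values of the 2 Col-0 x Col-0 endosperm libraries at 6 days after pollination were read from a table of FPKM for 34133 genes, which the authors deposited. Per the submitters' processing notes, TopHat2 2.1.1, SAMtools 1.5 and Cufflinks 2.2.1 were used with the TAIR10 genome. Options and annotation are not given in the sources used here. All 8 sample columns were matched to samples by their names.

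Names, products, lengths and neighbours came from the TAIR10.1 RefSeq annotation, which matched 31416 identifiers. No coordinates are printed because the builds may differ. Depth was estimated from single-transcript genes of at least 1500 nt at 6 FPKM or less. At the best depth ratio, 51.3% of 1537 low genes had whole-number ratios between the libraries within 0.2%, against a median of 0.39% at other ratios. The estimator was tested on simulated data. The length correction was 220 nt, and fragments per gene are estimates.

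A pseudocount of 1 was used on the log2 scale, which understates differences of low genes. Values were computed in Python 3.11.15 with pandas 2.3.3 and SciPy 1.17.1. No test was made, as there is a single group. The named genes are the 30 most abundant, up to 6 of each of 23 lists with 286 different genes, 10 per direction between libraries and 15 transcription factors. Genes named beside these, and the product classes and families, were chosen after their values were seen. The members and lists were chosen with earlier results of these data known. Alternatives varied the pseudocount, the filter, the scaling, the transcript length and the library left out.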

Additional observations from a re-analysis of the deposited data

How the results depend on the processing

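Correlation of the libraries depended on which low genes entered. Pearson's r was 0.957, and it was 0.952 with a pseudocount of 0.1, 0.926 over genes at 1 FPKM or more in at least 1 library, 0.970 with no filter, which counts the genes at 0 in both, and 0.964 over genes with at least 10 estimated fragments in both. Spearman's rho was 0.958, against 0.945 and 0.952 for the filter on at least 1 library and for no filter. Of the 30 most abundant genes, 12 remained when transcripts under 500 nt were left out, since the peptide genes are short, and 26 with no minimum length. Without either library, 28 to 29 of the 30 remained, 225 to 229 list genes passed in place of 217, and the cysteine-rich class held 3.86% to 5.36% of all FPKM. Of the 23 lists, 14 had a median log2 difference above that of all genes, and 6 with no filter, where many genes have a difference of 0. No paired analysis was possible because the libraries form a single group, with no other group to pair with. Replicate 1, with about 646000 fragments, limits what can be said of genes under about 3.63 FPKM on a transcript of 1500 nt and of more abundant genes on shorter ones.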

Other observations

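More genes were found in replicate 2 alone than in replicate 1 alone. Above 0 in replicate 1 alone were 428 genes, of which 22 reached 10 FPKM and 8 reached 100 FPKM. Above 0 in replicate 2 alone were 2175 genes, of which 89 reached 10 FPKM and 8 reached 100 FPKM. Replicate 2 was 2.61-fold deeper, and the part of depth in these counts was not tested. The spread of the log2 difference at 100 to 300 FPKM was 0.31 (SD over 1802 genes), against 0.19 from counting error at the estimated fragments.

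AT5G63230, an X8 gene next to the abundant pair, had 867 FPKM in replicate 1 and 484 FPKM in replicate 2. The S1 homologues AT1G26797 and AT1G26799, of neighbouring identifiers to AT1G26796, had 714 and 502 FPKM in replicate 1 and 445 and 270 FPKM in replicate 2, while AT1G26798 between them had 105 FPKM in replicate 1 and 80.7 FPKM in replicate 2. AGP24 and AGP1, arabinogalactan peptide and protein genes, had 1126 and 797 FPKM in replicate 1 and 554 and 467 FPKM in replicate 2. NF-YB13, a B subunit of Nuclear factor Y, had 14.8 FPKM in replicate 1 and 54.4 FPKM in replicate 2. These genes were chosen after their values were seen.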
